A study of Apis mellifera with 6 samples.

Results

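Odorant-binding proteins (OBPs) and chemosensory proteins (CSPs) are small soluble carriers of odorants, pheromones and lipids, while the odorant receptors (Or) and gustatory receptors (Gr) are membrane proteins that respond to such ligands. In the honeybee these families are best known from the antenna, where carriers in the lymph of a sensillum meet receptors on the neuron's dendrite, but many OBPs and CSPs are also expressed in tissues with no known role in smell. The chemosensory entries examined here were all rows of the ovary expression table whose symbol begins with Obp, CSP, Or or Gr followed by a digit. They numbered 42 of 11169 gene entries, namely 5 CSP, 20 Obp, 5 Gr and 12 Or entries, chosen by symbol and not by their levels.

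The ovaries came from 3 kinds of female Apis mellifera. Queen-right workers lived in standard hives with a laying queen and had ovaries scored 0 for activity. Queen-less workers came from nucleus boxes without a queen and had ovaries scored 3, dissected 2 to 4 weeks after the queen-less hive was set up. Queens were laying queens of about 12 months of age with no ovary score given, and no age was given for the workers. Ovaries of queens and queen-less workers are together called active here. Hives stood at 3 sites, and each group was represented by 2 RNA-seq libraries of total RNA, each from a pool of ovaries. Nothing beyond the pool numbers says how the pools were separated, so p-values measure only the spread between pools, which may be technical. The values are RPKM, reads scaled by the authors to the length of each gene and the size of each library. Over all entries they summed to 385121 and 411992 RPKM in queen-right worker libraries and 330953 to 336392 RPKM in the others. They are therefore only roughly comparable between libraries. Levels, counts at a limit, sums and ratios are given in these RPKM, while the tested fold changes also use the authors' factor of each library.

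Relative depth, read from the steps between low RPKM values, lay between 94.7% and 100% of the deepest library, while the absolute depth is unknown. In the OBPs whose low values allowed it, the smallest step that could be 1 read was 0.16 RPKM in Obp17, 0.63 RPKM in Obp4 and 0.26 to 0.47 RPKM in the others, so 1 RPKM can rest on few reads. Both libraries of a group correlated across entries with r of 0.976 to 0.988. Of 13 germline markers 9 were found, all present in every group, with summed levels of 1227 to 1281 RPKM in queen-right workers, 3024 to 3369 RPKM in queen-less workers and 3730 to 3873 RPKM in queens. The rise of this sum was carried largely by mael, at 97.5 and 56.5 RPKM in queen-right workers against 1467 to 2309 RPKM in active ovaries, while orb went from 963 and 1058 RPKM to 523 to 623 RPKM. In both comparisons with queen-right workers 5 of the 9 were higher, 1 lower and 3 did not pass. The summed marker lists of other tissues had the opposite order. Of 20 muscle genes 11 were found, and they summed to 2906 and 3576 RPKM in queen-right worker libraries, against 222 to 245 RPKM in queen-less workers and 56.9 to 84.7 RPKM in queen libraries. 6 of 8 fat body genes summed to 1238 to 1579, 39.3 to 49.8 and 12.9 to 35.6 RPKM in the same order, and 4 of 6 haemocyte genes to 34.2 to 38.0, 2.85 to 3.08 and 1.65 to 2.02 RPKM. Sums of 6 of 15 neuronal genes were 91.8 to 102, 49.9 to 65.9 and 38.9 to 44.3 RPKM, and those of 22 of 25 cuticle genes 123 to 138, 81.3 to 93.9 and 53.6 to 64.0 RPKM. Against queen-right workers, 1 of 5 tested neuronal genes was lower in queen-less workers and 3 in queens, with none higher. 5 of 12 cuticle genes were lower and 1 higher in queen-less workers, and 8 lower and 0 higher in queens. 9 and 10 of 11 muscle genes were lower, as were all 6 fat body and 4 haemocyte genes. Over all tested entries 37.0% and 40.6% were lower. Rfabg alone gave 1160 and 947 RPKM of the fat body sum in queen-right workers. No muscle, fat body, haemocyte or neuronal list was at 0 in any group, though the muscle gene TpnCIIb and 5 cuticle genes were at 0 in both active groups. These sums moved together with the falls and rises described in the following paragraphs, and their part in them was not tested. In bulk ovary RNA, fewer cells of a type and less RNA per cell cannot be told apart.

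At a limit of 1 RPKM in both libraries of a group, 23 of the 42 chemosensory entries were detected in queen-right workers (54.8%), while queen-less workers had 17 (40.5%) and queens 14 (33.3%). Over all 11169 entries the same limit was met by 75.9%, 70.0% and 67.5%. The count of CSPs stayed at 4 of 5 in every group, whereas OBPs went from 9 to 7 to 6 of 20, gustatory receptors from 4 to 3 to 3 of 5, and odorant receptors from 6 to 3 to 1 of 12. 13 entries were detected in all groups, 8 in queen-right worker ovaries alone and 17 in no group. How often these patterns occurred over all entries was not counted. Obp7 was detected in both active groups and not in queen-right worker ovaries, and Obp13 in queen-less worker ovaries alone. The counts were 10, 11 and 8 at a limit of 5 RPKM and 8, 7 and 3 at a limit of 10 RPKM, in the order queen-right workers, queen-less workers, queens. Over all entries 62.5%, 56.8% and 55.0% met the limit of 5 RPKM, and 52.1%, 46.9% and 45.6% that of 10 RPKM.

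**Figure D1:**
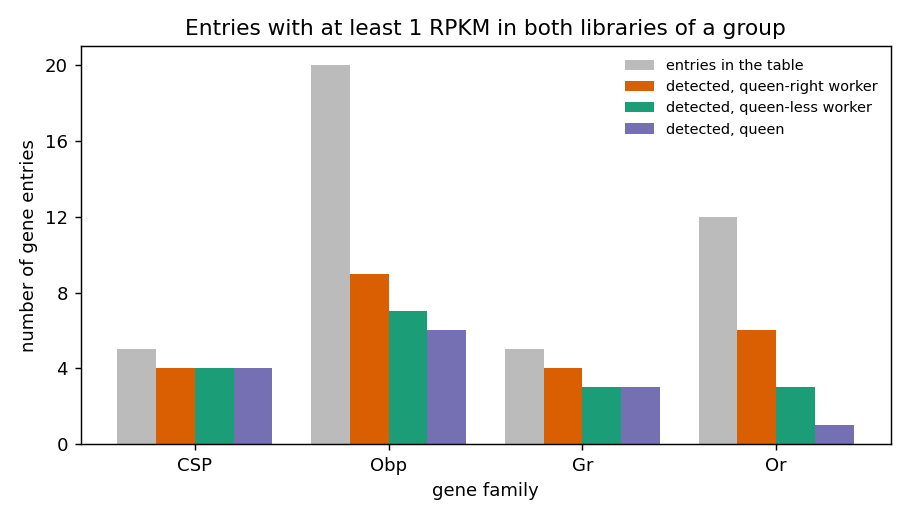
Number of gene entries in each chemosensory family (grey) and number with at least 1 RPKM in both libraries of a group (coloured), out of 5 CSP, 20 Obp, 5 Gr and 12 Or entries. CSPs were detected equally often in the 3 groups, while the detected odorant receptors numbered 6, 3 and 1.

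Of the 42 entries, 27 had at least 1 RPKM in 2 or more libraries and could be tested, 4 CSP, 12 Obp, 4 Gr and 7 Or entries. 7 of the 27 (Obp4, Obp18, Obp21, Gr1, Or2, Or94 and Or160) met this filter through the queen-right worker libraries alone, so their lower level elsewhere follows in part from the filter. Obp7 met it through the active libraries alone, so its higher level there follows in part from the filter as well. The 15 untested entries were CSP4, Obp1, Obp2, Obp5, Obp6, Obp8, Obp15, Obp16, Obp19, Gr10, Or31, Or77PAR, Or78, Or106 and Or167PAR, and none exceeded 1.82 RPKM in queen-right workers, 0.33 RPKM in queen-less workers or 0.63 RPKM in queens. Obp1, the antennal carrier ASP1 that binds the queen pheromone component 9-ODA, was listed at 0 in all 6 libraries, as were Obp5, Obp8 and Or167PAR. Obp1 lies within LOC408676, which had 24.15 to 35.05 RPKM. Obp5 and Obp8 overlap each other and lie within LOC727000, at 22.89 to 56.59 RPKM. How reads of overlapping genes were counted is not given, so the zeros of Obp1, Obp5 and Obp8 are uncertain.

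Set against inactive ovaries of queen-right workers, those of queen-less workers differed in 19 of the 27 tested entries at an adjusted p under 0.05, 5 of them higher (CSP6, Obp7, Obp9, Gr3 and Gr7) and 14 lower. The background was high, as 67.6% of all tested entries differed, 30.6% higher and 37.0% lower. Between queens and queen-right workers 22 of 27 differed, the same 5 higher and 17 lower, against 71.8% of all tested entries, 31.3% higher and 40.6% lower. Both comparisons use the same queen-right worker libraries and so are not independent. The median log2 fold change of the tested chemosensory entries was −0.66 for queen-less against queen-right workers and −0.95 for queens against queen-right workers, beside −0.13 and −0.19 over all tested entries. Obp4, Obp18, Obp21, Gr1, Or2 and Or160 are among the 14 lower calls, and these and Or94 among the 17. All 7 were tested through the queen-right worker libraries alone, so these counts and medians follow in part from the filter. The libraries of queen-less workers did not overlap those of queen-right workers in 24 of 27 entries, 6 higher and 18 lower, which held for 84.7% of all tested entries, 31.6% higher and 53.1% lower. Those of queens did not overlap them in 24 of 27 entries either, 5 higher and 19 lower, against 86.9% of all tested entries, 32.3% higher and 54.6% lower.

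**Figure D2:**
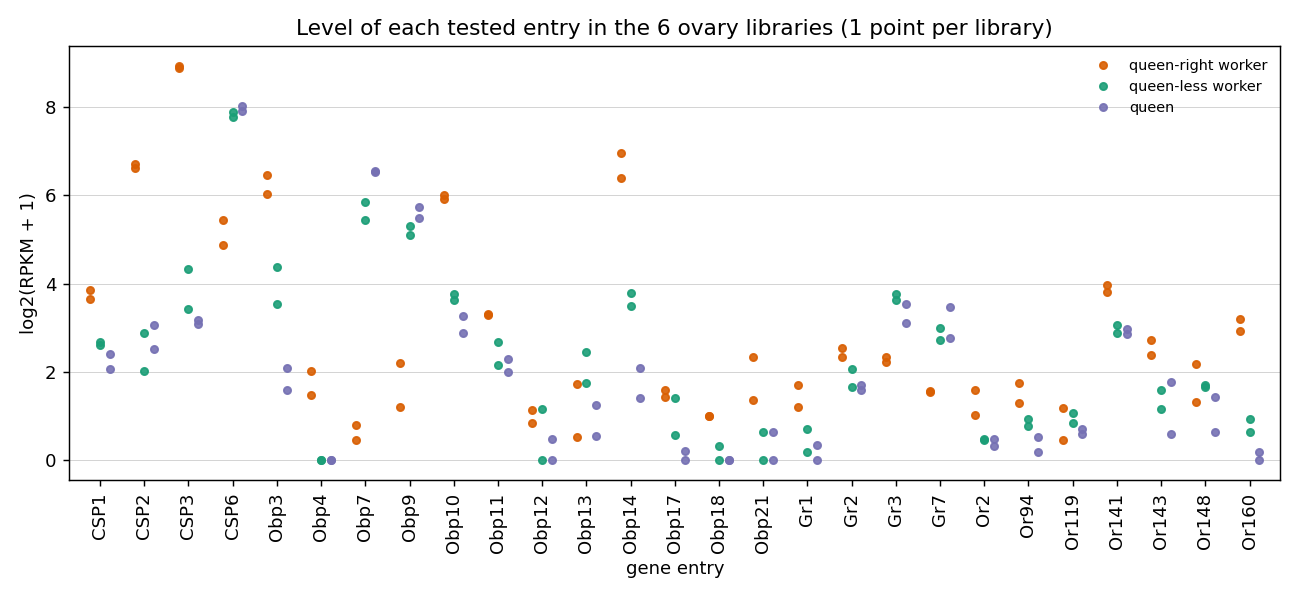
Level of the 27 tested chemosensory entries in each of the 6 ovary libraries as log2(RPKM + 1), 1 point per library and 1 colour per group. CSP3, CSP2 and Obp14 have their highest points in queen-right worker libraries, and CSP6, Obp7 and Obp9 in the queen-less worker and queen libraries.

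The CSPs held the most abundant transcripts of these families and exchanged places between inactive and active ovaries. CSP3, also called ASP3c and known to bind fatty acids, had 489 and 473 RPKM in queen-right workers, 9.79 and 19.1 RPKM in queen-less workers and 8.01 and 7.44 RPKM in queens. The mean of queen-right workers was thus 33.3-fold that of queen-less workers and 62.3-fold that of queens, and CSP3 was among the 125 most abundant entries of both queen-right worker libraries. On the log2(RPKM + 1) scale, which all log2 fold changes given here use and which understates the change of low genes, CSP3 fell in queen-less workers, at −4.84 (SE 0.26, adjusted p = 7.98e-06), and in queens, at −5.59 (SE 0.26, adjusted p = 3.10e-06). CSP2 showed 97.6 and 104 RPKM in queen-right workers, 3.04 and 6.41 RPKM in queen-less workers and 7.36 and 4.76 RPKM in queens. All 4 active libraries lay below 8 RPKM and far below the queen-right ones, with log2 fold changes of −4.02 (SE 0.30, adjusted p = 2.74e-05) and −3.67 (SE 0.30, adjusted p = 3.08e-05). CSP1, at 11.5 and 13.4 RPKM in queen-right workers, 5.10 and 5.39 RPKM in queen-less workers and 3.18 and 4.27 RPKM in queens, moved less, with log2 fold changes of −0.91 (SE 0.20, adjusted p = 0.00458) in queen-less workers and −1.32 (SE 0.20, adjusted p = 0.000636) in queens. The call of CSP1 in queen-less workers was lost once the trend with gene length was removed, at a log2 fold change of −0.44.

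CSP6 was the CSP that rose. Its libraries read 28.2 and 42.6 RPKM in queen-right workers, 234 and 217 RPKM in queen-less workers and 240 and 260 RPKM in queens, so that every active library had at least 5 times the level of either queen-right one. The log2 fold changes were 2.86 (SE 0.16, adjusted p = 9.19e-06) and 3.01 (SE 0.16, adjusted p = 4.75e-06). CSP2 and CSP3 together made up 91.0% and 93.4% of the summed CSP level in queen-right worker libraries and 4.42% to 10.3% in the other 4, where CSP6 made up 87.5% to 94.0%. The mean summed level was 631 RPKM in queen-right workers, 250 RPKM among queen-less workers and 267 RPKM in queens. CSP4 had no library above 1.43 RPKM and was listed at 0 in the 4 active libraries.

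The OBPs split in the same manner, with 3 abundant entries falling and a pair rising. Obp14 had 124 and 82.7 RPKM in queen-right workers, 10.2 and 12.9 RPKM in queen-less workers and 3.27 and 1.65 RPKM in queens, and no library of one group reached the range of another. Its log2 fold changes against queen-right workers were −2.84 (SE 0.29, adjusted p = 0.000115) in queen-less workers and −4.73 (SE 0.29, adjusted p = 8.18e-06) in queens. Obp3 likewise stood at 86.5 and 64.3 RPKM in queen-right workers, 19.9 and 10.7 RPKM in queen-less workers and 3.24 and 2.04 RPKM in queens, also without overlap between groups, and its log2 fold changes were −2.08 (SE 0.31, adjusted p = 0.000673) and −4.20 (SE 0.31, adjusted p = 1.75e-05). Obp10, at 59.8 and 63.7 RPKM in queen-right workers, 12.7 and 11.4 RPKM in queen-less workers and 8.68 and 6.38 RPKM in queens, completed the abundant OBPs of inactive ovaries, with changes of −2.07 (SE 0.16, adjusted p = 3.39e-05) and −2.69 (SE 0.16, adjusted p = 7.87e-06) on the log2 scale.

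Obp7 was close to absent in queen-right worker ovaries and abundant in active ones, with 0.38 and 0.75 RPKM in queen-right workers, 56.4 and 42.3 RPKM in queen-less workers and 92.9 and 91.9 RPKM in queens. The queen-right values may rest on 1 and 2 reads. Taken as such reads, the ratio of queen-less to queen-right workers was 87.4 with a 95% exact interval of 29.6 to 427, and that of queens 163 with an interval of 55.5 to 794, both covering counting error only. Obp7 rose by 5.20 (SE 0.17, adjusted p = 2.48e-06) in queen-less workers and by 6.11 (SE 0.17, adjusted p = 6.27e-07) in queens, and had the largest rise of the 27 tested entries in either comparison. Obp9 followed with 3.61 and 1.33 RPKM in queen-right workers, 33.5 and 38.6 RPKM in queen-less workers and 52.1 and 43.7 RPKM in queens, log2 fold changes of 3.69 (SE 0.31, adjusted p = 4.71e-05) and 4.09 (SE 0.31, adjusted p = 2.19e-05), and no overlap between active and inactive libraries. Obp3, Obp10 and Obp14 supplied 90.5% and 91.3% of the summed OBP level in queen-right worker libraries, 28.2% and 29.6% in queen-less worker libraries and 6.69% and 9.13% in queen libraries. The share of Obp7 and Obp9 was 0.901% and 1.34%, 62.1% and 65.0%, and 87.1% and 90.1%, in the same order.

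The remaining OBPs were low in every library, none above 9 RPKM. Obp11, at 8.94 and 8.80 RPKM in queen-right workers, 5.39 and 3.50 RPKM in queen-less workers and 3.88 and 3.03 RPKM in queens, changed by −0.69 (SE 0.23, adjusted p = 0.0315) and −0.95 (SE 0.23, adjusted p = 0.00699) on the log2 scale. Without a queen-right worker library (−0.64 without replicate 1, −0.73 without replicate 2) or without queen-less worker replicate 2 (−0.45) the first of these did not pass. Quantile normalization ended both (−0.35 and −0.36), as did removing the trend with gene length (−0.25 and −0.41). Obp11 overlaps LOC725048, so its reads are uncertain. Obp4 had 3.04 and 1.80 RPKM in queen-right workers, 0 and 0 RPKM in queen-less workers and 0 and 0 RPKM in queens, and since both active groups were listed at 0, its fitted changes of −1.56 (SE 0.26, adjusted p = 0.00123) and −1.55 (SE 0.26, adjusted p = 0.00108) depend on the pseudocount and bound no fold. Obp21, at 4.04 and 1.59 RPKM in queen-right workers, 0 and 0.55 RPKM in queen-less workers and 0 and 0.55 RPKM in queens, had log2 fold changes of −1.34 (SE 0.41, adjusted p = 0.021) and −1.34 (SE 0.41, adjusted p = 0.0197). Its calls rested on queen-right worker replicate 1, without which they were −0.83 and −0.82 and did not pass, and they also ended without queen-less worker replicate 1 (−1.02) and queen replicate 1 (−1.02) respectively. Under quantile normalization neither passed (−0.91 and −0.77), and with 0.1 RPKM added in place of 1 the first did not (−3.18).

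Obp18, at 1.02 and 1.01 RPKM in queen-right workers, 0.25 and 0 RPKM in queen-less workers and 0 and 0 RPKM in queens, changed by −0.66 (SE 0.22, adjusted p = 0.0317) and −0.81 (SE 0.22, adjusted p = 0.0121), again fitted values that bound no fold. The first did not pass without queen-right worker replicate 1 (−0.62), queen-less worker replicate 2 (−0.51) or either queen library (−0.66), and the second not without queen replicate 1 or 2 (both −0.81). Neither passed under quantile normalization (−0.39 and −0.60) or with the length trend removed (−0.44 and −0.54). Obp17 had 1.72 and 2.00 RPKM in queen-right workers, 1.67 and 0.48 RPKM in queen-less workers and 0.16 and 0 RPKM in queens, and passed in queens at −1.21 (SE 0.30, adjusted p = 0.00801) but not in queen-less workers at −0.33 (SE 0.30, adjusted p = 0.36). The call in queens was lost under quantile normalization (−0.73). Whether these changes differed was tested directly by queens against queen-less workers, where Obp17 did not pass at −0.88 (SE 0.30, adjusted p = 0.224). Obp12 and Obp13 passed in neither comparison, with libraries at 1.22 and 0.8, 0 and 1.25 and 0 and 0.41 RPKM for Obp12 and 2.30 and 0.45, 4.49 and 2.37 and 1.40 and 0.47 RPKM for Obp13 in the same order of groups. The larger of their changes was that of Obp13 in queen-less workers, 1.17 (SE 0.46, adjusted p = 0.0539).

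**Figure D3:**
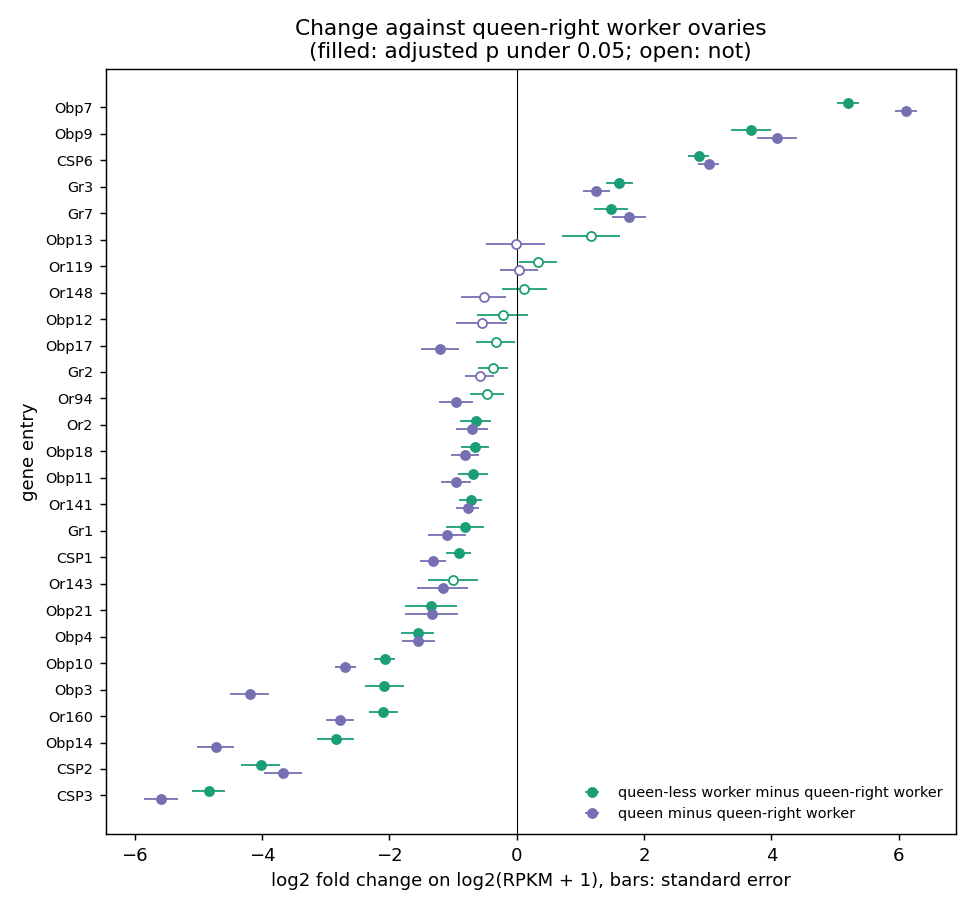
Log2 fold change on the log2(RPKM + 1) scale, with its standard error, of the 27 tested entries for queen-less minus queen-right workers and queens minus queen-right workers; filled points have an adjusted p under 0.05. Obp7 lies farthest to the right at 5.20 and 6.11, and CSP3 farthest to the left at −4.84 and −5.59.

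Most Obp entries lie side by side on the scaffolds of the authors' gene table, whose assembly is not named in the sources used here. Obp4, Obp3, Obp7, Obp2 and Obp6 follow each other without another entry between them over 12717 bp of scaffold NW_003378095 (367378 to 380094). Within this run Obp3 (369084 to 370146) and Obp7 (371640 to 373121) are direct neighbours 1493 bp apart, and they changed in opposite directions in both active groups. The ratio of Obp7 to Obp3 was 0.00439 and 0.0117 in queen-right workers, 2.83 and 3.95 in queen-less workers and 28.7 and 45.0 in queen libraries. Obp4, 363 bp before Obp3, was lower in active ovaries as Obp3 was, while Obp2 and Obp6 had no more than 0.34 RPKM in any library. A run of 8 entries from Obp13 to Obp21 spans 34986 bp of scaffold NW_003377896 (444091 to 479076). Obp14 (450920 to 451712) was the abundant entry of that run, with 124 RPKM at most, against 4.49 RPKM at most for its 7 neighbours.

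**Figure D4:**
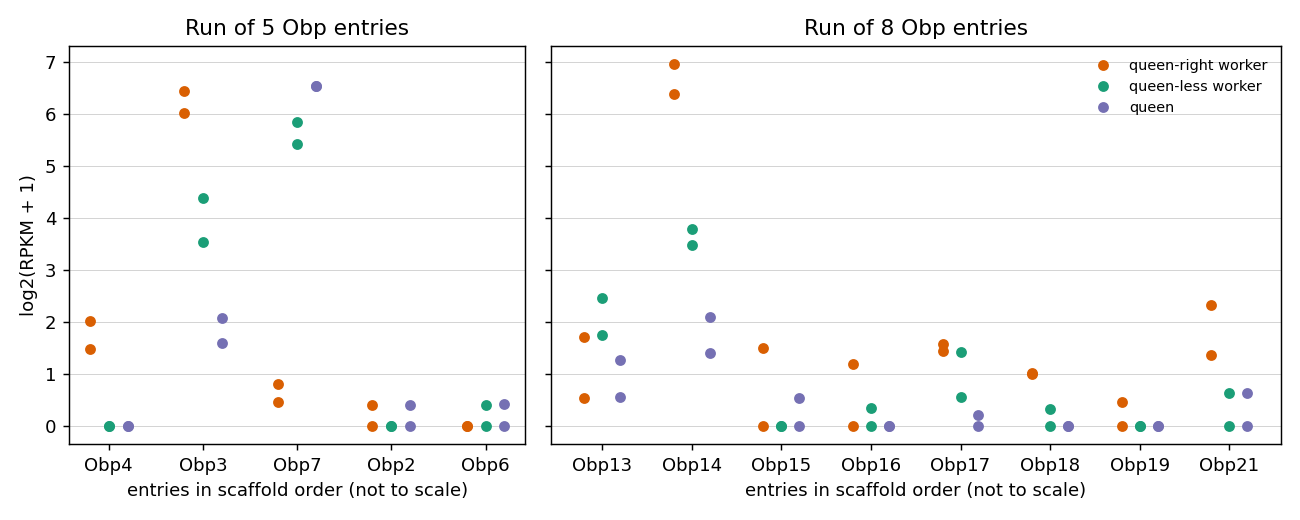
Level, as log2(RPKM + 1), of the OBP entries in 2 uninterrupted runs, in scaffold order and not to scale, with 1 point per library. Obp3 and its neighbour Obp7 have opposite orders of the groups, and in the longer run Obp14 stands above the other 7 entries in queen-right workers.

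Beside the entries that rose, neighbouring genes of other kinds had higher levels in active ovaries in some cases and lower levels in others. Obp9 (scaffold NW_003378039, 758450 to 759233) has Adar, the gene of an RNA-editing enzyme, as its nearest entry on one side, 3501 bp away. Adar had 48.8 and 35.0 RPKM in queen-right workers and 352 to 389 RPKM in the other 4 libraries. On the other side of Obp9, LOC100578573 had at most 0.14 RPKM in any library. CSP6 (scaffold NW_003378183, 27955 to 29831) overlaps cdc2rk, which read 47.0 and 46.2 RPKM in queen-right workers and 66.9 to 70.3 RPKM in the other libraries. The strand used in counting is not given in the sources used here, so reads in the overlap cannot be told apart. A neighbour of CSP6, LOC751767, had 4.67 and 1.72 RPKM in queen-right workers and 72.2 to 143 RPKM in the other libraries, while BTBD9 on its other side had 20.5 and 25.7 RPKM and then 8.08 to 9.77 RPKM. Beside Gr3, LOC551833, 448 bp away, had 45.5 and 55.5 RPKM in queen-right workers and 26.9 to 32.3 RPKM in the others, and LOC410017 had 47.0 and 55.3 RPKM and then 26.9 to 31.0 RPKM. LOC411490, 871 bp from Gr7, had 37.0 and 29.03 RPKM against 145 to 155 RPKM. On the other side of Gr7, LOC726553 had at most 0.32 RPKM in any library. CSP2 lies within Pygo, which stayed between 19.3 and 24.3 RPKM in all 6 libraries while CSP2 fell.

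The gustatory receptors were low throughout and moved in both directions. Gr3, related to the Drosophila fructose receptor Gr43a, had 4.05 and 3.68 RPKM in queen-right workers, 12.7 and 11.4 RPKM in queen-less workers and 7.65 and 10.7 RPKM in queens, and rose by 1.61 (SE 0.21, adjusted p = 0.000353) and 1.25 (SE 0.21, adjusted p = 0.00109) on the log2 scale. It overlaps LOC413663, which read 35.3 and 46.9 RPKM in queen-right workers and 60.9 to 67.0 RPKM in the other libraries, so its reads are uncertain. Gr7 rose from 1.91 and 1.99 RPKM in queen-right workers to 6.94 and 5.58 in queen-less workers and 10.1 and 5.85 RPKM in queens, log2 fold changes of 1.49 (SE 0.27, adjusted p = 0.00181) and 1.76 (SE 0.27, adjusted p = 0.000642). Active and inactive libraries did not overlap for either receptor.

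The sugar receptors Gr1 and Gr2 had their highest levels in queen-right worker ovaries. Gr1 read 2.28 and 1.32 RPKM in queen-right workers, 0.65 and 0.14 RPKM in queen-less workers and 0.27 and 0 RPKM in queens, with log2 fold changes of −0.82 (SE 0.30, adjusted p = 0.0426) and −1.09 (SE 0.30, adjusted p = 0.0122). These calls were weak, the first ending without queen-right worker replicate 1 (−0.53), queen-less worker replicate 2 (−0.56) or either queen library (−0.82) and the second without queen-right worker replicate 1 (−0.81) or queen replicate 2 (−0.92). Quantile normalization ended both (−0.39 and −0.62), and the first also ended with the length trend removed (−0.73) or with 0.1 RPKM added in place of 1 (−1.92). Gr2, at 4.83 and 4.06 RPKM in queen-right workers, 3.22 and 2.18 RPKM in queen-less workers and 2.03 and 2.28 RPKM in queens, did not pass in either comparison, with −0.38 (SE 0.23, adjusted p = 0.184) and −0.58 (SE 0.23, adjusted p = 0.0519). The summed level of the 5 gustatory receptors had a mean of 12.6 RPKM in queen-right workers, 21.5 among queen-less workers and 19.5 RPKM in queens.

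Of the 7 tested odorant receptors, 3 were lower in queen-less workers and 5 in queens, and none passed as higher, beside 37.0% and 40.6% of all tested entries that were lower. Or160 and Or2 are among the 3, and Or160, Or2 and Or94 among the 5, that were tested through the queen-right worker libraries alone, so these counts carry little weight. Or160 changed most, reading 6.64 and 8.23 RPKM in queen-right workers, 0.91 and 0.55 RPKM in queen-less workers and 0 and 0.14 RPKM in queens, with log2 fold changes of −2.10 (SE 0.23, adjusted p = 0.000146) and −2.78 (SE 0.23, adjusted p = 2.91e-05). The 0.14 RPKM in 1 queen library may rest on 1 read. The nearest entry, LOC551621, lies 1331 bp away. It went from 55.5 and 67.5 RPKM to 4.86 and 4.51 and then 0.96 and 0.53 RPKM in the same order. On the other side of Or160, hrg, 5860 bp away, stayed between 22.2 and 28.8 RPKM in all 6 libraries. Or141 was the most abundant odorant receptor entry, at 14.7 and 13.01 RPKM in queen-right workers, 7.33 and 6.44 RPKM in queen-less workers and 6.91 and 6.25 RPKM in queens, and changed by −0.72 (SE 0.18, adjusted p = 0.00857) and −0.77 (SE 0.18, adjusted p = 0.00565). The first call of Or141 was lost without queen-right worker replicate 1, at −0.60, and the second under quantile normalization, at −0.42. Or141 was the one odorant receptor above 1 RPKM in both libraries of every group.

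Or2 is Orco, the co-receptor with which the other odorant receptors form a channel, and it was near the limit of detection. It had 1.03 and 2.02 RPKM in queen-right workers, 0.37 and 0.4 RPKM in queen-less workers and 0.26 and 0.39 RPKM in queens, with changes of −0.65 (SE 0.25, adjusted p = 0.0488) and −0.70 (SE 0.25, adjusted p = 0.0335) that did not pass under several alternatives. Without queen-right worker replicate 2 they were −0.39 and −0.45 and did not pass. They also did not pass without queen-less worker replicate 1 (−0.62 and −0.70), queen-less worker replicate 2 (−0.67 and −0.70), queen replicate 1 (−0.65 and −0.63) or queen replicate 2 (−0.65 and −0.77). Quantile normalization reduced the changes to −0.23 and −0.07, and with the length trend removed they were −0.61 and −0.50, neither passing. Or2 also overlaps LOC100577898, which leaves its few reads uncertain.

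Or94 and Or143 passed in queens alone. Or94 had 2.35 and 1.45 RPKM in queen-right workers, 0.72 and 0.91 RPKM in queen-less workers and 0.45 and 0.15 RPKM in queens, with −0.95 (SE 0.26, adjusted p = 0.0129) in queens and −0.47 (SE 0.26, adjusted p = 0.152) in queen-less workers, and its call in queens was lost without queen-right worker replicate 1 (−0.69) or queen replicate 2 (−0.78) and under quantile normalization (−0.30). Or143 had 5.65 and 4.22 RPKM in queen-right workers, 2.00 and 1.23 RPKM in queen-less workers and 0.52 and 2.44 RPKM in queens, with −1.17 (SE 0.39, adjusted p = 0.0288) in queens and −0.995 (SE 0.39, adjusted p = 0.0545) in queen-less workers, and its call was lost without queen-right worker replicate 1 (−0.96) or queen replicate 1 (−0.58) and under quantile normalization (−0.38). In the direct comparison of queens with queen-less workers neither passed, at −0.48 (SE 0.26, adjusted p = 0.41) and −0.17 (SE 0.39, adjusted p = 0.861). Or119 and Or148 passed in no comparison, their libraries lying between 0.38 and 1.27 RPKM and between 0.56 and 3.53 RPKM.

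Of the 11169 entries 9045 were matched to the RefSeq gene table, so some odorant receptors may be missed. Another 29, listed under LOC numbers, were named through its symbols or synonyms. Of these, 8 had at least 1 RPKM in both queen-right worker libraries, 0 in both queen-less worker libraries and 5 in both queen libraries, and none exceeded 5.40 RPKM. 12 could be tested, of which 5 were lower and none higher in queen-less workers, and 4 lower and 1 higher in queens, each against queen-right workers. Over all tested entries 37.0% were lower and 30.6% higher in queen-less workers, and 40.6% and 31.3% in queens. Or9, Or25 and Or50 were tested through the queen-right worker libraries alone and make up 3 of the 5 and 3 of the 4 lower calls. The 1 higher call, Or63 (LOC100578189), was tested through the queen libraries alone, at 1.14 RPKM in each, so it too follows in part from the filter. Or11, the receptor of 9-ODA listed as LOC100577902, had 0.85 and 1.79 RPKM in queen-right workers, 0.35 and 0.25 RPKM in queen-less workers and 1.11 and 0.74 RPKM in queens. It passed in neither comparison, with log2 fold changes of −0.61 (SE 0.26, adjusted p = 0.0666) in queen-less workers and −0.05 (SE 0.26, adjusted p = 0.881) in queens. Of 15 listed genes linked to sensory transduction, such as arrestins and TRP channels, 8 were found by symbol and 6 could be tested. Of these 6, 4 were lower in queen-less workers and 5 in queens, with none higher, against the same shares of all tested entries. Pain, a channel known from Drosophila nociception, had 25.8 and 30.2 RPKM in queen-right workers. It had 10.6 and 7.66 RPKM in queen-less workers and 5.42 and 5.27 RPKM in queens. TRP had 24.2 and 27.1 RPKM in queen-right workers and 25.5 and 23.0 RPKM in queen-less workers. Against queen-right workers it passed as lower in queens alone, at 4.81 and 5.74 RPKM. Arr1 passed in neither comparison and lay between 1.22 and 2.04 RPKM.

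The comparison of queens with queen-less workers, both with active ovaries, separated few of these genes. 2 of the 27 tested entries differed, both lower in queens, against 1.48% of all tested entries, 1.40% of them lower and 0.0797% higher. Obp3 fell from 19.9 and 10.7 to 3.24 and 2.04 RPKM, a log2 fold change of −2.12 (SE 0.31, adjusted p = 0.0214), and Obp14 from 10.2 and 12.9 to 3.27 and 1.65 RPKM, −1.89 (SE 0.29, adjusted p = 0.0264). Both therefore declined in 2 steps, from queen-right to queen-less workers and on to queens, and each step passed the test. These last calls lay near the threshold and did not depend on single libraries alone. Both were lost without a filter and with only the 4 libraries compared. The call of Obp14 was also lost under quantile normalization (−1.57), without the variance trend and with the replicate block. That of Obp3 ended without queen-right worker replicate 1 or 2 (−2.12 in both), queen-less worker replicate 1 (−1.71), or queen replicate 1 (−2.36) or 2 (−1.88), and that of Obp14 without queen-right worker replicate 2 (−1.89), queen-less worker replicate 1 (−2.05) or 2 (−1.72), or queen replicate 2 (−1.54). The direction held in each of these fits.

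Obp7 had the largest rise of queens over queen-less workers, 0.91 (SE 0.17, adjusted p = 0.0591), which did not pass. For CSP6 the difference was 0.16 (SE 0.16, adjusted p = 0.669), with a 95% interval of −0.23 to 0.54, and for Obp9 0.41 (SE 0.31, adjusted p = 0.551), with an interval of −0.33 to 1.14. CSP2 differed by 0.35 (SE 0.30, adjusted p = 0.599), with an interval of −0.36 to 1.06, and CSP3 by −0.75 (SE 0.26, adjusted p = 0.228), with an interval of −1.36 to −0.14 before any adjustment over entries. The interval of Gr3 was −0.85 to 0.13 and that of Gr7 −0.34 to 0.90. Differences of about 1 on the log2 scale therefore remained possible for several of these genes. The libraries of queens and queen-less workers did not overlap in 15 of the 27 entries, 3 higher and 12 lower in queens, against 54.6% of all tested entries, 20.0% higher and 34.6% lower.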

How the data were processed

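RNA-seq of honeybee ovaries was used for 6 libraries, 2 from queens, 2 from queen-less and 2 from queen-right workers, grouped by their labels. RPKM per library and entry was deposited by the authors, with a normalized signal which equals RPKM + 1 multiplied by 1 factor per library (0.856 to 1.01). These factors were recovered from entries above 100 RPKM and kept. The aligner, counting program and genome build are not given in the sources used here. Another 12 columns of values per sample, 12 columns of means and 3 columns of the authors' adjusted p-values were not used. RPKM was analysed as log2(RPKM + 1) plus the log2 of the factor with limma (version 3.58.1, R 4.3.3), with a variance trend, all 6 libraries and 1 mean per group. The test was limited to the 8778 entries reaching 1 RPKM in 2 or more libraries, and p-values were adjusted over all of them (Benjamini-Hochberg, threshold 0.05). An exact permutation test of 2 against 2 libraries cannot give a p below 0.333. The model was tested on simulated data with normal noise of its own fitted spread and few changed entries. This checks the code and not the p-values of these data. Levels were handled with Python 3.11.15. Of the 42 members 39 matched the RefSeq gene table of Amel_HAv3.1, which was used for names only.

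The members, marker lists and tests were chosen with earlier results of these data known. By rule, each tested member was named, and those past the threshold were given with all 6 values. Or2, Or11 and Obp1 were named in any case. Neighbouring genes, Pain, TRP and Arr1 were chosen with their values known. Marker symbols absent from the table or ambiguous were left out. Alternatives were tried for filter, pseudocount, scaling, gene length, variance trend, libraries in the fit and replicate block.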

Additional observations from a re-analysis of the deposited data

How the results depend on the processing

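The 43 called fold changes gave 843 values under the alternatives, of which none reversed, 757 kept their side of the threshold and 86 no longer passed. Another 16 fold changes are printed that did not pass. Of their 310 values 28 passed in the same direction, and 13 changed sign, 0 of these past the threshold. Under quantile normalization the signs changed for Obp17 (0.16), Gr2 (0.15) and Or94 (0.027) in queen-less against queen-right workers, Gr2 (0.23) and Or11 (LOC100577902, 0.65) in queens against queen-right workers and Or143 (0.093) in queens against queen-less workers, and LOC100577902 had 0.30 with the length trend removed. Leaving out 1 library gave −0.10 to 0.80 for CSP2 and −0.76 to 0.42 for Or143 in queens against queen-less workers, −0.75 to 0.084 for Obp17 in queen-less workers and −0.31 to 0.22 for LOC100577902 in queens against queen-right workers. The cause was not tested. Of the 19 calls of queen-less against queen-right workers 12 held in every alternative that tested them. These were CSP2, CSP3, CSP6, Obp3, Obp4, Obp7, Obp9, Obp10, Obp14, Gr3, Gr7 and Or160. Of the 22 of queens against queen-right workers 13 held, the same and CSP1, and of the 2 of queens against queen-less workers 0. Obp4 and Or160 met the filter through the queen-right worker libraries alone and Obp7 through the active ones. All 3 were left untested where 1 RPKM was required in every library. Calls that held and were tested in every alternative numbered 9 for queen-less workers and 10 for queens, each against queen-right workers. The share of all entries that held was not counted. With at least 1 RPKM required in every library, 13 members could be tested. The calls against queen-right workers were then 12 and 13 of these, beside 4977 and 5263 of 7322 over all entries. With quantile normalization the calls of queens against queen-right workers were 13 of 27, beside 6048 of 8778 over all entries, for which the cause was not tested. The count of queens against queen-less workers was 0 without a filter, 1 with quantile normalization, 0 with only the 4 libraries compared, 1 without the variance trend and 1 with the replicate block, for which the cause was not tested. Leaving out 1 library gave 15 to 18, 18 to 21 and 0 to 1 calls. Detection at 5 RPKM counted 10, 11 and 8 members, and leaving out 1 library gave 25 to 28, 18 to 19 and 15 to 16. Without a filter, members at 0 in all libraries also pass through the authors' factors alone, and with RPKM scaled before 1 was added, an alternative chosen after seeing the data, the counts were 20, 23 and 2. Without the authors' scaling, the median over all entries moved to log2 fold changes of −0.32 and −0.39 against queen-right workers. Equal pool numbers did not deviate together (correlations of −0.13, −0.09 and 0.06 between pairs of groups), so the numbers were not taken as pairs. The replicate block gave 19, 22 and 1 calls, and with the queen-right worker numbers crossed, also chosen after seeing the data, 17, 21 and 3. Depth limits the OBPs and receptors near 1 RPKM most.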
